A study of Mus musculus with 6 samples.

Results

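The genes described here encode the heat shock proteins and their DnaJ partners in the infarcted mouse heart. Members were the protein-coding genes whose symbol starts with Hspa, Hspb, Hspd, Hspe, Hsph, Hsp90 or Dnaj and whose counts summed to at least 60 over the 6 libraries. This rule kept 65 genes of the 73 with such a symbol, out of 38293 genes in the table. They fall into 3 HSP90 genes, 3 HSP110 genes (Hsph1, Hspa4 and Hspa4l), 10 HSP70 genes, the mitochondrial chaperonin genes Hspd1 and Hspe1, 6 small HSP genes, 38 DnaJ genes (4 of class A, 9 of class B and 25 of class C) and 3 genes that share only the prefix (Hspb11, Hspbp1 and Hspbap1). Bulk RNA-seq had been made of heart tissue from 3 adult WT and 3 Zeb2 cKO mice on a backcrossed C57BL/6J background, 14 days after myocardial infarction (MI) by permanent occlusion of the LAD coronary artery. The Zeb2 cKO mice carried floxed Zeb2 alleles and a Cre recombinase under the cardiomyocyte promoter of Myh6, so that Zeb2, a zinc finger transcription factor, was deleted in cardiomyocytes, and the study's methods give the mice labelled WT as Zeb2 fl/fl. All 6 mice had the infarct, and an uninjured heart was not analysed here. The labels place the tissue at the border of the infarct and the study's methods in the remote zone. Whole tissue was counted, so that fewer cells of a type and less RNA per cell cannot be told apart.

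Molecular chaperones bind unfolded or partly folded proteins and help them to fold, to assemble or to be degraded. HSP70 proteins do so in cycles of ATP binding and hydrolysis, DnaJ proteins (HSP40) bring them their clients and start the hydrolysis, HSP110 proteins exchange the nucleotide, HSP90 proteins take over late folding steps of kinases and receptors, and small HSPs hold unfolded proteins without ATP. The cytosolic stress members are induced through the heat shock factor Hsf1 and the endoplasmic reticulum (ER) members through the unfolded protein response, and heart muscle is known for high levels of several small HSPs, which bind the contractile apparatus and its filaments.

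Total counts were between 37288174 and 51136331 per library, of which 60.55% to 67.03% fell on mitochondrially encoded genes and at least 14301225 per library on other genes. Levels are given as CPM, in which a count is divided by the TMM-scaled total of its library, and genotypes were compared by edgeR's quasi-likelihood test over 14746 genes with enough counts, among them all 65 members. Cardiomyocyte markers were present in every library, but WT replicate 2 stood apart. Its 6 cardiomyocyte markers summed to 8671 CPM against 15340 to 19440 CPM in the other libraries, its 6 fibroblast and matrix markers to 9253 CPM against 1585 to 2237, and its 6 macrophage markers to 655 CPM against 152 to 212. Its 6 endothelial markers summed to 330 CPM against 436 to 529 and its 6 smooth muscle and pericyte markers to 930 CPM against 1208 to 1457, and 5 red cell genes ranged over all libraries from 135 to 243 CPM. No marker of these lists was at 0 in any library, the lowest value being 1.92 CPM. The targeted gene, Zeb2, measured 61.3, 116 and 71.9 CPM in WT replicates 1, 2 and 3 and, in Zeb2 cKO, 59.6, 72.6 and 66.5 CPM, which gave a log2 fold change of -0.33 (standard error, SE, 0.25) and one of -0.0058 without WT replicate 2. The groups overlapped, and these whole-tissue counts did not separate the genotypes at Zeb2. Values without WT replicate 2 are therefore given beside the differences between genotypes.

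Promoter sequences were searched for strings of the DNA elements of the stress responses. RefSeq windows of 250 bases before the start of transcription (GRCm38.p6) matched 53 of the 65 members, with 70 windows. A facing pair of heat shock factor binding units, GAANNTTC on either strand, was in 12 of these windows (17.1%), beside 6.69% of 32851 windows of the same length over all genes, and the opposite arrangement, TTCNNGAA, was in 8 (11.4%, beside 7.17%). Both motifs read the same on either strand. The ER stress element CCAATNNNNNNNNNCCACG, bound by the factors of the unfolded protein response, was in the windows of 3 members (4.3%), Hsp90b1, Hspa5 and Dnajc3, beside 0.11% of all windows, and each holds a CCAAT box by its own first letters. CACCTG, the E-box that ZEB proteins bind, was in 7 member windows (10%, beside 17.22% of all windows), those of Dnajb1, Dnajb2, Dnajb9, Dnajc16, Dnajc28, Hsp90b1 and Hspa12a. The TATA box TATAAA was in 4 member windows (5.7%, beside 12.37%) and CCAAT in 24 (34.3%, beside 33.85%). Shown first are Hspa1a (minus strand of chr17:34972157-34972406), Hspa1b (minus strand of chr17:34959239-34959488) and Hspb3 (minus strand of chr13:113663677-113663926), since these are the stress-inducible HSP70 pair and the small HSP gene whose values are described in detail below, with GAANNTTC in capitals at 104, 104 and 224 bases before the start. Then follow the 3 windows with the ER stress element in capitals, Hsp90b1 (minus strand of chr10:86705445-86705694), where a second copy lies on the other strand, Hspa5 (plus strand of chr2:34771840-34772089) and Dnajc3 (plus strand of chr14:118937682-118937931). A match is a string of letters that can also occur by chance, and binding was not measured here. Elements outside the window or of other spelling are missed by this search.
Hspa1a: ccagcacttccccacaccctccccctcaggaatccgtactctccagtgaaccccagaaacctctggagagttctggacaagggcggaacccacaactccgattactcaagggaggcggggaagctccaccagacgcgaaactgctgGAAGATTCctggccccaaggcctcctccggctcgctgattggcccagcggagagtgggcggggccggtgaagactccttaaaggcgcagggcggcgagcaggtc
Hspa1b: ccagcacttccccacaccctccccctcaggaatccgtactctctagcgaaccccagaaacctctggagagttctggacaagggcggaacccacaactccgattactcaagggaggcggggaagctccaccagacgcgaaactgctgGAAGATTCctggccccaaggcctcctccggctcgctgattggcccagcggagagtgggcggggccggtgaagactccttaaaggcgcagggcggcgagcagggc
Hspb3: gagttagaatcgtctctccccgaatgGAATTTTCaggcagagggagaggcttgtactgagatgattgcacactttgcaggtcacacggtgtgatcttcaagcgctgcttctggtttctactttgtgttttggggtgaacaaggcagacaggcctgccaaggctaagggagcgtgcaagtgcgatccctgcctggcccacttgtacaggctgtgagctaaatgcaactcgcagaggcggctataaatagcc
Hsp90b1: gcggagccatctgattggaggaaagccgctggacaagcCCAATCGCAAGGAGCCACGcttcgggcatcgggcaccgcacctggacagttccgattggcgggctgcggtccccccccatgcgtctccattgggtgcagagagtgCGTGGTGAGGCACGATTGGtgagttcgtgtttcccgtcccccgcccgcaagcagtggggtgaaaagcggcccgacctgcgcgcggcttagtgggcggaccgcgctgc
Hspa5: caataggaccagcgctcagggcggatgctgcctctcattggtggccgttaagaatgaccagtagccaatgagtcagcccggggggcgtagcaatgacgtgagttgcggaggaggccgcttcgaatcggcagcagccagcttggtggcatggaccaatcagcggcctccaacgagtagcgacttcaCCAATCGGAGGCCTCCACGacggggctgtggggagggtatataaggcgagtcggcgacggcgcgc
Dnajc3: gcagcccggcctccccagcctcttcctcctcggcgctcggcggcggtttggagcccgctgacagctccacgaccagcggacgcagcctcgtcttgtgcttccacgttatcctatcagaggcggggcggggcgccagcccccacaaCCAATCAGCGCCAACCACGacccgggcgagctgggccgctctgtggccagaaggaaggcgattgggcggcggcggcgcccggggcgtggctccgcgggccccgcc

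Levels per length, given as CPM per kb of exon over the 6 libraries (mean ± SD, n = 6), spanned from 0.0413 to 182.1 among the members. Hspb7, a small HSP of heart muscle that binds filamin, was highest at 182.1 ± 34.4 CPM per kb, followed by the constitutive cytosolic HSP90 gene Hsp90ab1 at 126 ± 19.3 and by Hspb8, the partner of Bag3 in the removal of damaged filament proteins, at 109 ± 18.2. The ranges of Hsp90ab1 and Hspb8 overlap and their means differ by less than the larger SD, but Hsp90ab1 was higher within every library. Hspa9, the mitochondrial HSP70, was at 51.6 ± 10.7 CPM per kb, Hspb6, a small HSP of muscle, at 47.9 ± 9.21, and Hspa5, the ER HSP70 also called BiP, at 38.9 ± 6.97, and these neighbours again differ by less than the larger of their SDs. Of the DnaJ genes, Dnaja2, a cytosolic partner of HSP70, was highest at 24.0 ± 1.95 CPM per kb, against 5.60 ± 0.508 for the highest gene of class B (Dnajb4) and 8.08 ± 2.00 for the highest of class C (Dnajc10).

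At the low end stood Dnajc6, the auxilin that helps to uncoat clathrin vesicles, at 0.0413 ± 0.0122 CPM per kb. Near it was the stress-inducible pair Hspa1a and Hspa1b at 0.133 ± 0.0442 and 0.137 ± 0.0374. These 2 genes share 75.7% and 78.5% of their longest transcripts with near-identical copies. The treatment of multiply mapped reads is not known, so the levels of the pair may be too low. The constitutive cytosolic HSP70 gene, Hspa8, was at 20.1 ± 5.34 CPM per kb. Summed as CPM without regard to length, the 6 small HSP genes held 30.0% of the members' counts, HSP70 18.3%, HSP90 18.3% and DnaJ class C 14.2%. Dnajc6 was also the member closest to the limit of 60 counts, with 65 over the 6 libraries, and Dnajb3, with 25, was the closest gene below it.

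**Figure D1:**
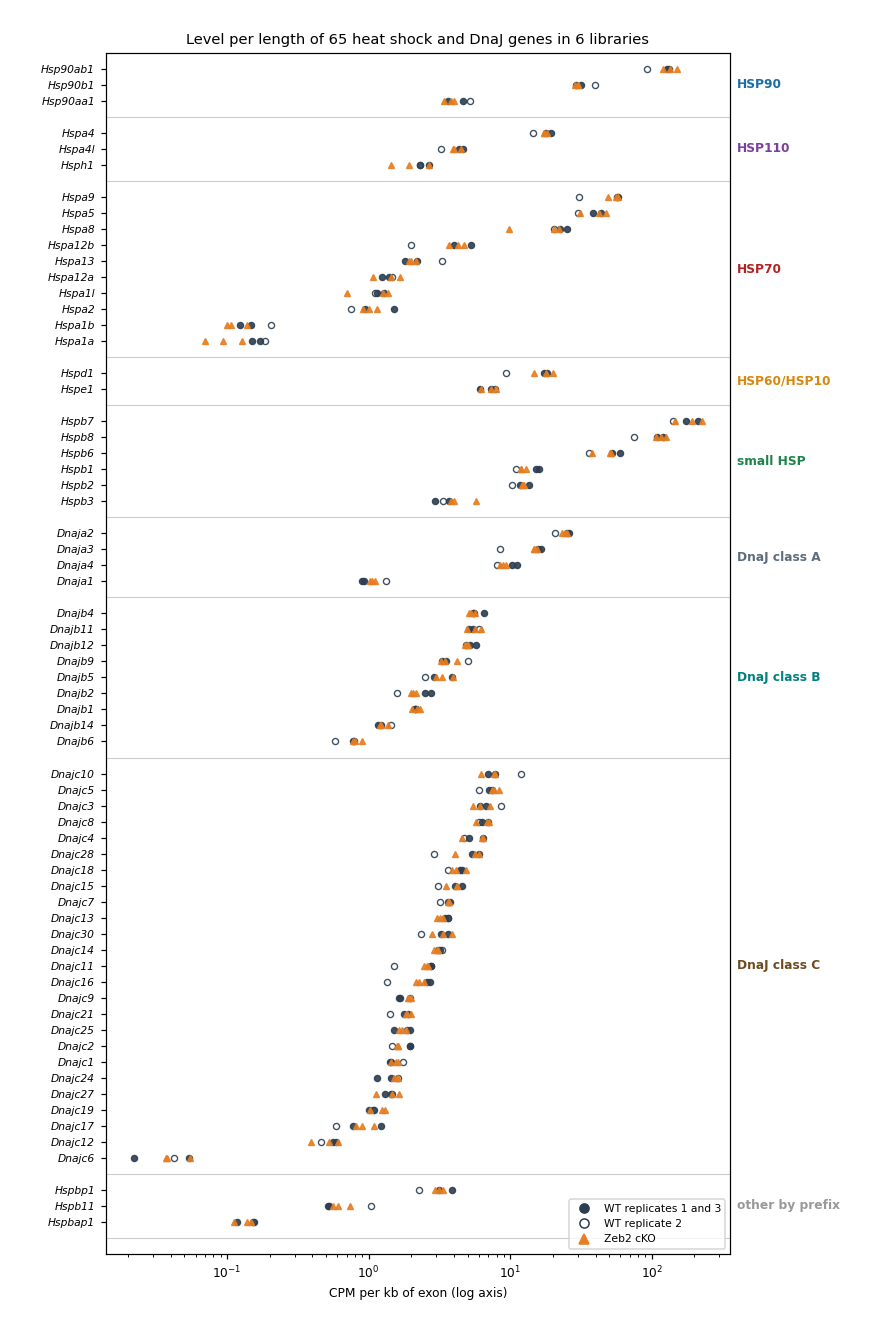
Level of each of the 65 genes in each of the 6 libraries, in CPM per kb of exon on a logarithmic axis, ordered by class and by mean level. Circles are WT, with WT replicate 2 as an open circle, and triangles are Zeb2 cKO, and the levels run from Dnajc6 (mean 0.0413) to Hspb7 (mean 182.1).

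No member changed between the genotypes by the test over all genes. After Benjamini-Hochberg adjustment in edgeR's quasi-likelihood test, 0 of 65 members had a p under 0.05 (0% of all genes tested did), and the smallest adjusted p of a member was 0.957. At an unadjusted p under 0.05 there was 1 member, Hspa1a, beside 1.90% of all genes. Under -0.2 in log2 fold change lay 7 members (10.8% of them, beside 22.6% of all genes): Hspa1a, Hspa1b, Hspa8, Dnajc10, Hsph1, Hsp90aa1 and Hspa13. Over 0.2 lay 3 members (4.62%, beside 15.9% of all genes): Hspb3, Hspd1 and Dnajb6. The 3 libraries of each genotype lay apart in Hspa1a and Dnajc13, lower in Zeb2 cKO (2.97% of all genes), and in Hspb3, higher in Zeb2 cKO (3.39% of all genes). With all 6 libraries, the shares past the fold and apart between genotypes were thus below or near those of all genes.

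The difference was smaller than its standard error in 45 of the 65 members. The standard errors ran from 0.0983 to 0.407 on the log2 scale with a median of 0.19, and a log2 fold change as large as the -0.78 of Hspa1a did not pass the adjusted test. The median log2 fold change was 0.02 over the members and -0.0069 over all genes tested. Without WT replicate 2, 11 members (16.9%) were under -0.2, beside 11.7% of all genes then tested, and 5 (7.69%) over 0.2, beside 14.2%. Then 12 members (18.5%) lay apart and lower in Zeb2 cKO, beside 7.22% of all genes, and 6 (9.23%) apart and higher, beside 8.31%. The shares of members under -0.2 and of those apart and lower were thus above those of all genes without this library, and below or near them with it. At an unadjusted p under 0.05 were 4 members (6.15%, beside 2.63% of all genes), Dnaja4, Dnajb2, Dnajc2 and Hspb1 in place of Hspa1a. All 4 were lower in Zeb2 cKO in that comparison, and 0 members passed the adjustment.

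By class, the median log2 fold change was -0.17 in HSP90, 0.022 in HSP110, -0.065 in HSP70, 0.13 in the mitochondrial chaperonin, 0.076 in the small HSPs, 0.019 in DnaJ class A, -0.014 in class B, 0.050 in class C and -0.091 in the genes of shared prefix. Without WT replicate 2 the medians were -0.024, -0.11, -0.12, 0.043, -0.033, -0.092, 0.035, -0.020 and -0.031 in the same order. In HSP70, 4 of 10 genes were under -0.2 in both comparisons, beside 22.6% of all genes with and 11.7% without WT replicate 2, and Hspa2 took the place of Hspa13 without that library. These counts include Hspa1a and Hspa1b, which share most of their sequence, and Hspa8, which was at -0.089 without Zeb2 cKO replicate 1. The summed CPM of all members was 2941, 2354 and 3094 in WT replicates 1 to 3 and 2973, 2861 and 2864 in Zeb2 cKO, so that the lowest sum was that of WT replicate 2 and the other 5 libraries lay close together.

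**Figure D2:**
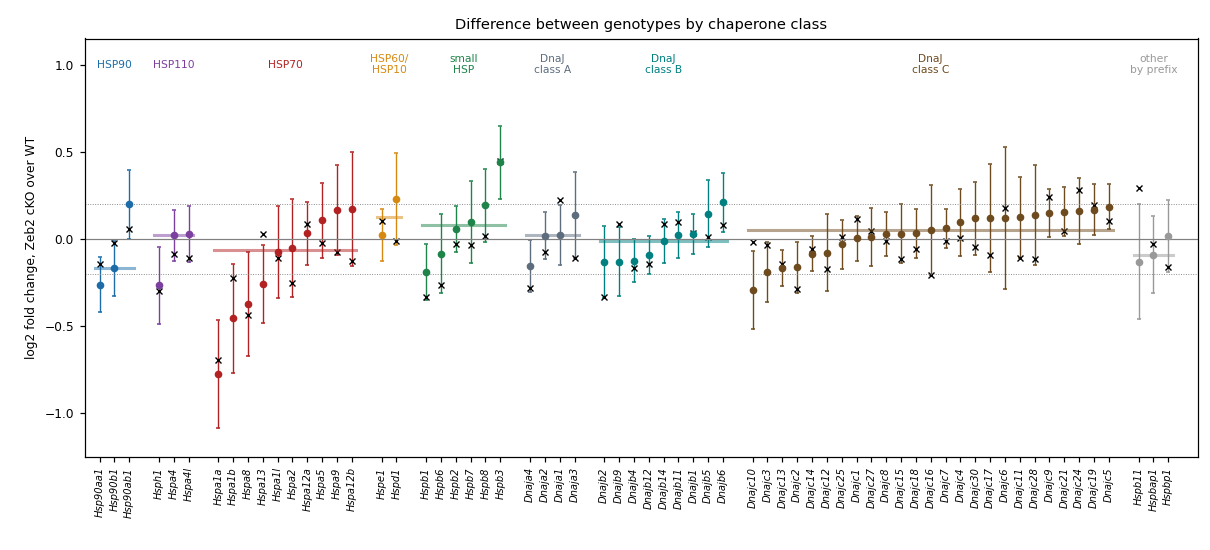
Log2 fold change of each gene, Zeb2 cKO over WT, by class, with bars of 1 standard error from edgeR (n = 3 against 3). Thick lines are class medians, crosses are the values without WT replicate 2, dotted lines mark -0.2 and 0.2, and Hspa1a at -0.78 and Hspb3 at 0.44 are farthest from 0.

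The cytosolic HSP70 genes held the lowest log2 fold changes among the members. Hspa8, whose protein folds new chains and strips clathrin coats, was at 96.1, 88.3 and 109 CPM in WT and at 42.3, 95.5 and 88.3 CPM in Zeb2 cKO (97.7 ± 10.4 against 75.4 ± 28.9, SD, n = 3), with a log2 fold change of -0.375 (SE 0.30). Zeb2 cKO replicate 1 alone was low, at 2116 counts against 3620 to 4745 in the other libraries, while the other Zeb2 cKO replicates lay within the WT range. Without that library the log2 fold change was -0.089. Hspa8 shares 75.5% of its longest transcript at 95% identity or more with other genes, which leaves its count uncertain.

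The pair Hspa1a (ENSMUSG00000091971) and Hspa1b (ENSMUSG00000090877) is found at chr17:34969190-34972156 and chr17:34956436-34959238 of GRCm38, both on the minus strand, and encodes the stress-inducible HSP70. Hspa1a had 19, 24 and 17 counts in WT and 19, 9 and 15 in Zeb2 cKO, or 0.504, 0.547 and 0.443 CPM against 0.380, 0.207 and 0.279 CPM. The Zeb2 cKO libraries all lay below the WT libraries in CPM, and the log2 fold change was -0.78 (SE 0.31, unadjusted p = 0.042 and adjusted p = 0.957 in edgeR's quasi-likelihood test, exact permutation test two-sided p = 0.1, the smallest that 3 against 3 allow). Hspa1b had 13, 25 and 16 counts in WT and 14, 13 and 21 in Zeb2 cKO, with overlapping groups and a log2 fold change of -0.46 (SE 0.31).

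The genes share 75.7% and 78.5% of their longest transcripts with near-identical copies, first of all with each other. Reads could thus be divided between them in either way or be left out of both. Summed, the pair was at 0.849, 1.12 and 0.859 CPM in WT and at 0.659, 0.507 and 0.670 CPM in Zeb2 cKO (0.942 ± 0.151 against 0.612 ± 0.0912, SD, n = 3), and the groups did not overlap. The sum contains Hspa1a, whose groups lay apart, while those of Hspa1b overlapped, so it is not a second observation. The highest value was that of WT replicate 2, and without it the log2 fold changes were -0.70 in Hspa1a (edgeR unadjusted p = 0.099) and -0.23 in Hspa1b. The upstream windows printed above are alike over most of their length in both genes and hold the same GAAGATTC.

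The other HSP70 genes outside the ER and mitochondria gave small differences with wide errors. Hspa1l, a germ cell HSP70 next to the pair, was at 2.81, 2.73 and 3.18 CPM in WT and 3.14, 1.75 and 3.37 CPM in Zeb2 cKO, with a log2 fold change of -0.076 (SE 0.26), or -0.11 without WT replicate 2, and 72.3% of its longest transcript is shared with near-identical copies. Hspa2, another HSP70 of germ cells, had a log2 fold change of -0.053 (-0.25 without WT replicate 2), Hspa12a of 0.031 (0.084) and Hspa12b, an HSP70 relative of endothelial cells, of 0.17. In Hspa12b, WT replicate 2 was at 7.38 CPM against 13.7 to 19.3 in the other libraries, and the log2 fold change without it was -0.13, beside the lower endothelial markers of that library. Their part in the result was not tested.

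**Figure D3:**
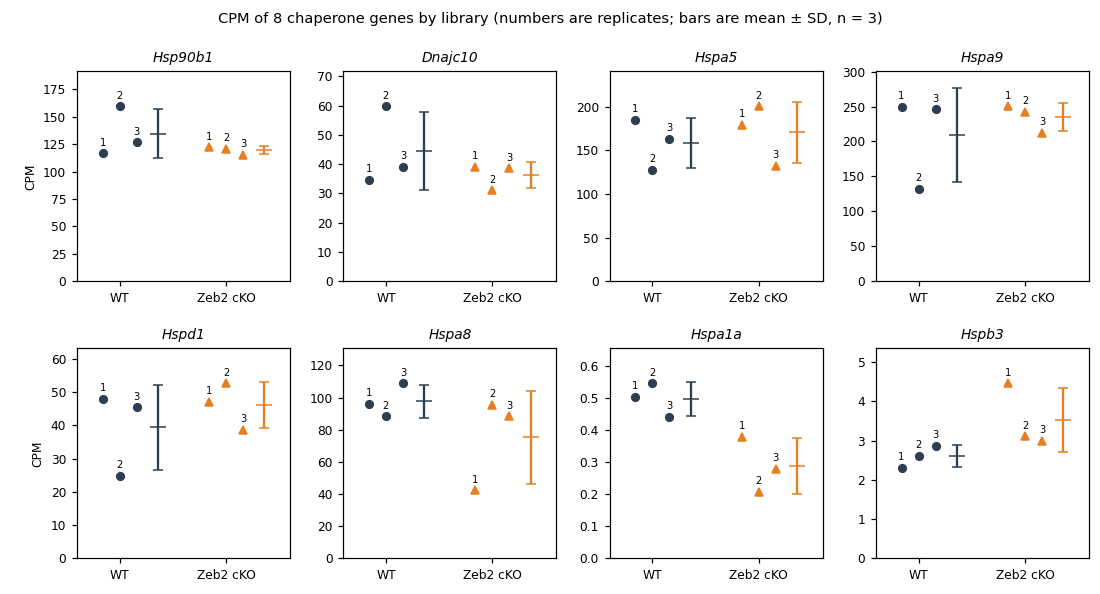
CPM of 8 chaperone genes in each library, with the replicate number at each point and mean ± SD (n = 3) beside it. WT replicate 2 is the highest library in Hsp90b1 and Dnajc10 and the lowest in Hspa5, Hspa9 and Hspd1, Zeb2 cKO replicate 1 alone is low in Hspa8, and the genotypes lie apart in Hspa1a and Hspb3.

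The cytosolic HSP90 genes had log2 fold changes of opposite sign, neither past the test. The stress-inducible Hsp90aa1 was at 14.3, 20.4 and 18.2 CPM in WT and 15.8, 13.3 and 15.0 CPM in Zeb2 cKO, with a log2 fold change of -0.26 (SE 0.16) and of -0.14 without WT replicate 2. Of its longest transcript, 68.7% is shared with near-identical copies. The constitutive Hsp90ab1 was at 395, 277 and 383 CPM in WT and 399.9, 452 and 359 CPM in Zeb2 cKO, with a log2 fold change of 0.20 (SE 0.20) and of 0.055 without WT replicate 2. In both genes the groups overlapped, and WT replicate 2 was the highest library for Hsp90aa1 and the lowest for Hsp90ab1.

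Among the HSP110 genes, Hsph1, the inducible member, was at 16.7, 16.6 and 19.4 CPM in WT and 14.0, 10.5 and 19.3 CPM in Zeb2 cKO. Its log2 fold change was -0.27 (SE 0.22) and -0.30 without WT replicate 2, and Zeb2 cKO replicate 3 lay within the WT range. Without Zeb2 cKO replicate 3 the value was -0.52 and without Zeb2 cKO replicate 2 it was -0.077, so single libraries set its size. Hspa4 and Hspa4l, the constitutive relatives, had log2 fold changes of 0.022 and 0.026, or -0.087 and -0.11 without WT replicate 2.

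Of the small HSPs, Hspb3 alone lay apart between the genotypes. Hspb3 (ENSMUSG00000051456; minus strand of chromosome 13, 113662896 to 113663676), a muscle small HSP that pairs with Hspb2, had 87, 115 and 110 counts in WT and 223, 135 and 161 in Zeb2 cKO, or 2.31, 2.62 and 2.86 CPM against 4.46, 3.11 and 3.00 CPM. The log2 fold change was 0.44 (SE 0.21, edgeR's quasi-likelihood test unadjusted p = 0.075 and adjusted p = 0.957, exact permutation test two-sided p = 0.1). The value without WT replicate 2 was 0.45, and without Zeb2 cKO replicate 1, the highest library, it was 0.23. Hspb2, its partner, was at 11.2, 8.64 and 9.84 CPM in WT and 10.2, 10.5 and 10.2 CPM in Zeb2 cKO, with a log2 fold change of 0.057 that was -0.030 without WT replicate 2, and 32.6% of its longest transcript is shared with the neighbouring Cryab.

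In the 3 most abundant small HSP genes the genotypes differed by less than the SD between libraries. Hspb7 was at 481, 392 and 589 CPM in WT and 531, 406 and 626 CPM in Zeb2 cKO, with a log2 fold change of 0.096 (SE 0.24) and of -0.035 without WT replicate 2. Hspb8 was at 213, 145 and 236 CPM in WT and 244, 226 and 208 CPM in Zeb2 cKO, with a log2 fold change of 0.19, which was 0.014 without WT replicate 2. Hspb6 was at 121, 82.1 and 137 CPM in WT and 118, 86.9 and 116 CPM in Zeb2 cKO, with a log2 fold change of -0.085, and of -0.27 without WT replicate 2. The groups overlapped in all of them, and WT replicate 2 was the lowest library in 5 of the 6 small HSP genes. Hspb1, the inducible small HSP that binds actin, was at 16.5, 11.4 and 15.6 CPM in WT and 12.3, 12.3 and 13.4 CPM in Zeb2 cKO, with a log2 fold change of -0.19 (SE 0.16) and of -0.34 without WT replicate 2. It shares 72.6% of its longest transcript with near-identical copies.

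The 38 DnaJ genes had log2 fold changes from -0.29 (Dnajc10) to 0.21 (Dnajb6), with a median of 0.028 (-0.018 without WT replicate 2). Dnajc13, a large endosomal DnaJ protein that recruits HSP70 to endosomes, was at 41.4, 43.5 and 43.1 CPM in WT and 36.2, 38.1 and 39.8 CPM in Zeb2 cKO, the only DnaJ gene whose groups did not overlap. The difference was small, with a log2 fold change of -0.17 (SE 0.10, exact permutation test two-sided p = 0.1), and it was -0.15 without WT replicate 2. Dnajb6, which keeps client proteins from aggregating at the Z-disc of muscle, was at 4.80, 3.49 and 4.69 CPM in WT and 5.42, 4.86 and 4.73 CPM in Zeb2 cKO, with a log2 fold change of 0.21 (SE 0.17) and of 0.079 without WT replicate 2, and 47.3% of its longest transcript is shared with near-identical copies. Dnaja4, a cytosolic partner of HSP70, was at 37.1, 28.9 and 40.3 CPM in WT and 33.3, 30.2 and 31.9 CPM in Zeb2 cKO, with a log2 fold change of -0.16, and of -0.28 without WT replicate 2. Dnaja2 and Dnajb4, among the most abundant of their classes, had log2 fold changes of 0.017 and -0.13, and Dnajc5, the cysteine string protein of secretory vesicles, of 0.18 (SE 0.13), or -0.076, -0.17 and 0.10 without WT replicate 2. The inducible Dnajb1 was at 6.77, 6.86 and 6.88 CPM in WT and at 7.01, 6.48 and 7.43 CPM in Zeb2 cKO, with a log2 fold change of 0.029, and of 0.035 without WT replicate 2.

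Grouped by compartment, the members set WT replicate 2 apart from the other 5 libraries. Of the 65 members, WT replicate 2 was the lowest of the 6 libraries in 31 (47.7%) and the highest in 15 (23.1%), against 34.6% and 35.2% of all genes tested. The 10 members that work in mitochondria were lowest in WT replicate 2 in 7 cases and highest in 0, and their median log2 ratio of WT replicate 2 to the mean of the other 5 libraries was -0.67. The 13 ER members were highest there in 7 cases and lowest in 3, with a median ratio of 0.22, and the 42 other members had a median ratio of -0.24. In the same library the cardiomyocyte markers were at their lowest and the fibroblast, matrix and macrophage markers at their highest sums, as given above, and their part in these values was not tested.

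Between the genotypes, all 10 mitochondrial members had a log2 fold change above 0, with a median of 0.13 (-0.0069 over all genes), and without WT replicate 2 the median was -0.060. Hspa9, which pulls proteins into the mitochondrial matrix, was at 250.0, 132 and 246 CPM in WT and at 250.4, 242 and 212 CPM in Zeb2 cKO, with a log2 fold change of 0.17 (SE 0.26), and of -0.075 without WT replicate 2. Hspd1, the chaperonin HSP60, was at 48.0, 24.8 and 45.4 CPM in WT and at 47.0, 52.6 and 38.8 CPM in Zeb2 cKO, with a log2 fold change of 0.23, and of -0.015 without WT replicate 2. Its co-chaperonin Hspe1, whose start overlaps that of Hspd1 on chromosome 1, did not share this pattern, being at 8.97, 11.5 and 10.8 CPM in WT and 11.7, 10.8 and 9.14 CPM in Zeb2 cKO, with a log2 fold change of 0.022, and of 0.10 without WT replicate 2. Dnaja3, the DnaJ partner of Hspa9, was at 64.5, 33.2 and 61.4 CPM in WT and at 60.5, 57.2 and 57.2 CPM in Zeb2 cKO, with WT replicate 2 again the lowest and a log2 fold change of 0.14, or -0.11 without that library. For Hspd1, 71.1% of the longest transcript is shared with near-identical copies.

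The ER members gave a median log2 fold change of -0.032 (-0.020 without WT replicate 2), and no gene of theirs lay apart between the genotypes. Hsp90b1, the ER HSP90 also called GRP94, was at 117, 159.5 and 127 CPM in WT and at 122, 121 and 115 CPM in Zeb2 cKO, with a log2 fold change of -0.17 (SE 0.16), and of -0.024 without WT replicate 2. Dnajc10, a DnaJ reductase that opens disulfide bonds, was at 34.7, 59.8 and 39.1 CPM in WT and at 39.2, 31.1 and 38.7 CPM in Zeb2 cKO, with a log2 fold change of -0.29 (SE 0.22), and of -0.020 without WT replicate 2. Hspa13, a microsomal HSP70 relative, was at 12.3, 22.4 and 15.0 CPM in WT and at 14.8, 13.2 and 13.5 CPM in Zeb2 cKO, with a log2 fold change of -0.26 that was 0.025 without WT replicate 2. In these 3 genes WT replicate 2 was the highest library. Hspa5, which holds the same ER stress element as Hsp90b1 in its upstream window, went the other way in that library, at 185, 128 and 163 CPM in WT and 179, 200.4 and 132 CPM in Zeb2 cKO, with a log2 fold change of 0.11 (SE 0.22), and of -0.026 without WT replicate 2. Dnajb11, the DnaJ partner of Hspa5, had a log2 fold change of 0.021, and of 0.094 without WT replicate 2.

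**Figure D4:**
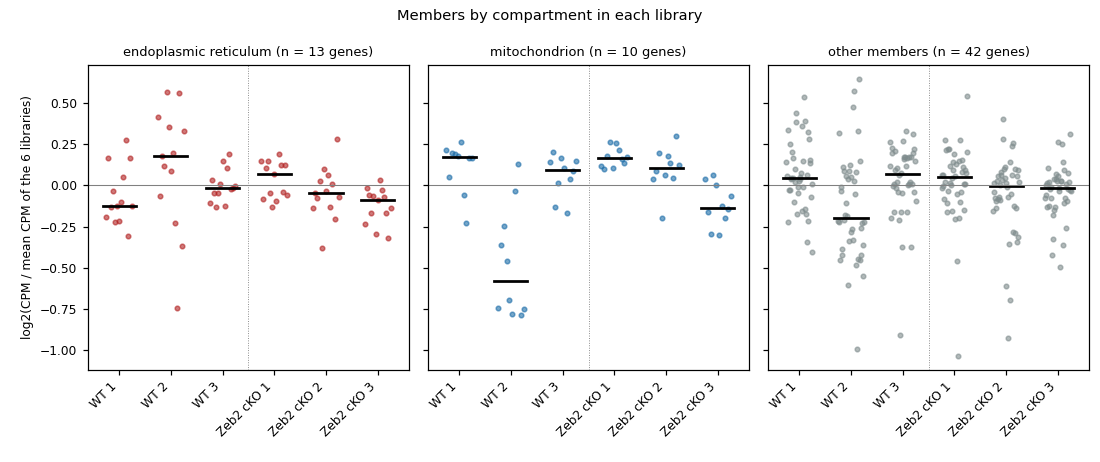
Log2 ratio of the CPM of each gene to its mean over the 6 libraries, for 13 ER members, 10 mitochondrial members and the 42 other members, with the median of each library as a line. In WT replicate 2 the median is 0.18 for the ER members and -0.58 for the mitochondrial members, and the other libraries lie between -0.13 and 0.17 in both panels.

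Members known as targets of the heat shock response and of the unfolded protein response were also compared as lists written by hand. The 13 heat shock targets had a median log2 fold change of -0.13 (-0.14 without WT replicate 2). Of them 5 (38.5%) were under -0.2 and 1 (7.69%) over 0.2, beside 22.6% and 15.9% of all genes. The counts were again 5 and 1 without WT replicate 2. Below 0 lay 7 targets and above it 6. Those under -0.2 include Hspa1a and Hspa1b, which share most of their sequence, and Hspa8, at -0.089 without Zeb2 cKO replicate 1. One target, Hspa1a, lay apart and lower (7.69%, beside 2.97%). The 7 targets of the unfolded protein response had a median of -0.17 (-0.020 without WT replicate 2). Of them 2 (28.6%) were under -0.2, but 0 without WT replicate 2, in which 5 of the 7 were highest. With all libraries, 0 of the 7 lay apart. No gene of either list passed the adjusted test.

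Partners of the chaperones outside the symbol rule were taken from a list of 81 genes, of which 77 were tested, and 0 passed the adjusted test (edgeR's quasi-likelihood test), with 1 (Pam16) at an unadjusted p under 0.05. Of the 77, 8 (10.4%) were under -0.2 and 9 (11.7%) over 0.2, beside 22.6% and 15.9% of all genes. With WT replicate 2 left out, 1 was under -0.2 and 5 over 0.2, beside 11.7% and 14.2% of all genes. With all libraries, 2 (2.6%) lay apart and lower in Zeb2 cKO and 2 (2.6%) apart and higher, beside 2.97% and 3.39%. The median log2 fold change was 0.049 (0.013 without WT replicate 2). The median was -0.072 in 22 ER folding and stress genes, 0.20 in 10 mitochondrial partners, 0.083 in 14 genes of the chaperonin CCT and prefoldin, where 0 genes were past 0.2 in either direction, and 0.063 in 27 cytosolic co-chaperones. Without WT replicate 2 these medians were 0.016, 0.029, 0.056 and -0.011. Hsf1, the factor that induces heat shock genes, was at 12.3, 8.23 and 9.61 CPM in WT and at 10.8, 10.3 and 8.97 CPM in Zeb2 cKO, with a log2 fold change of -0.0025 (SE 0.17), and of -0.13 without WT replicate 2. Bag3, the partner of Hspb8, had a log2 fold change of 0.057 (-0.14 without WT replicate 2), and Cryab, the alphaB crystallin that is a small HSP under another symbol, was at 356, 249 and 353 CPM in WT and at 342, 333 and 372 CPM in Zeb2 cKO. Its log2 fold change was 0.13, and -0.018 without WT replicate 2, where it was lowest, as were Hspb7 and Hspb8.

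The 4 partners that lay apart between the genotypes are given as values, since their share was near that of all genes. The disulfide isomerase Pdia6 and the ER stress kinase Eif2ak3 (PERK) were lower in Zeb2 cKO, with log2 fold changes of -0.30 and -0.23, or -0.14 and -0.13 without WT replicate 2. Pam16, a subunit of the mitochondrial import motor around Hspa9, was at 0.292, 0.182 and 0.312 CPM in WT and at 0.4996, 0.415 and 0.409 CPM in Zeb2 cKO. Its log2 fold change was 0.75 (SE 0.31, edgeR unadjusted p = 0.047 and adjusted p = 0.957), and 0.55 without WT replicate 2. The level of Pam16 was near that of Hspa1a, so counting error limits this value as well. Clpx, the unfoldase of a mitochondrial protease, was at 43.1, 26.2 and 40.4 CPM in WT and at 53.5, 48.3 and 47.3 CPM in Zeb2 cKO, with a log2 fold change of 0.44, and of 0.25 without WT replicate 2. The HSP90 partners of the steroid receptors, Fkbp5 and Fkbp4, had log2 fold changes of -0.57 and 0.58, their groups overlapped, and without WT replicate 2 the values were -0.24 and 0.31.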

How the data were processed

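RNA depleted of ribosomal RNA was sequenced from 6 hearts as strand-specific single-end reads, which the authors mapped and quantified with STAR on Gencode M4. The STAR version and the treatment of multiply mapped reads are not given in the sources used here. The deposited table holds raw counts, as the authors made them, with no normalization.

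From these counts, low genes were removed by filterByExpr (defaults), and the rest was scaled with TMM and compared with glmQLFit and glmQLFTest in edgeR 4.0.16 (R 4.3.3), with genotype as the factor and Benjamini-Hochberg adjustment over all genes kept. The prior count of log2 fold changes was 0.125. Single genes were also compared by exact permutation tests over the 3 against 3 libraries (SciPy 1.17.1). Symbols, positions and exon lengths came from Gencode M21 of the same build, GRCm38, and near-identical copies from BLAST 2.17.0 (at least 75 bases at 95% identity). DESeq2 1.42.0 was an alternative. The steps were tested on simulated data. Counting error matters mainly for genes of few counts. Elsewhere precision is set by the spread between libraries, in which mouse, dissection and library preparation cannot be told apart.

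The members and lists were chosen with earlier results of these data known. Named were all HSP genes, for each DnaJ class the 2 genes of highest level per length and the lower and higher gene of smallest unadjusted p, genes whose groups did not overlap, the genes next to the count limit, of the partners the 3 lower and 3 higher genes of smallest unadjusted p with Hsf1, Bag3 and Cryab, and Zeb2. Not all of them are printed. Dnajb1, Dnajb2, Dnajc2, the genes of Hspa5's and Hsp90b1's motif and those listed with a motif were named after their values or sequences were seen. Alternatives covered the scaling, the filter, the test, dispersions, mitochondrially encoded genes, the replicate number, the fold, the class borders and leaving out each library. Compartments and markers without WT replicate 2 were added after seeing the data.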

Additional observations from a re-analysis of the deposited data

How the results depend on the processing

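No alternative gave a member or a partner that passed the adjusted test, and leaving out each library in turn also gave 0 calls. DESeq2 called 2 genes of the whole table, none of them a member, and had 0 members at an unadjusted p under 0.05. With scaling by total counts alone, 7 members were under -0.2 and 11 over 0.2 (61.1% of those past the fold were higher, beside 30.0% with TMM), 9 lay apart and higher in Zeb2 cKO, 0 had an unadjusted p under 0.05, and the log2 fold changes of Hspa2 and Hsf1 turned to 0.0088 and 0.041. This scaling moved the median of all genes by 0.027. Without a filter on low counts, 6 members were over 0.2 (46.2% of those past the fold), 2 lay apart and higher, 0 had an unadjusted p under 0.05, the DnaJ class B median was 0.0050 and Hsf1 was at 0.016. With a cutoff of 0.5, 1 member was lower and 0 were higher. The mean log2 fold change of HSP70 was -0.15. The cause of these shifts was not tested. The shares of all genes past the fold or apart were not computed for these settings. Whether the shifts are particular to the members was therefore not tested either.

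The deviations of same-numbered libraries correlated at 0.088, -0.14 and -0.087. With 3 libraries per group, and WT replicate 2 apart from the rest, these values cannot decide whether the replicate numbers pair the samples. With the replicate number as a block, 7 members were under -0.2 and 7 over 0.2 (50%). In that fit 0 members had an unadjusted p under 0.05, and Hsf1 was at 0.012. Leaving out 1 library gave 5 to 12 members under -0.2 and 5 to 20 over 0.2. It gave 2 to 12 apart and lower, 1 to 6 apart and higher, and 0 to 4 at an unadjusted p under 0.05. Of these fits, shares of all genes were computed only without WT replicate 2. There 7.22% of all genes lay apart and lower, against 2.97% with all libraries, and 8.31% against 3.39% apart and higher. For the other fits the member counts cannot be set against all genes. The highest counts under -0.2 and over 0.2 came without WT replicate 1. Class medians then ranged from -0.075 to 0.035 in DnaJ class B, -0.20 to -0.033 in HSP70, -0.26 to -0.024 in HSP90, -0.11 to 0.12 in HSP110, 0.043 to 0.23 in the mitochondrial chaperonin, -0.033 to 0.16 in the small HSPs, -0.092 to 0.037 in DnaJ class A, -0.020 to 0.11 in class C and -0.20 to -0.025 in the genes of shared prefix. Of 42 genes followed in this way, 20 changed sign on leaving out a library, 13 of them without WT replicate 2. Their log2 fold changes ranged over -0.087 to 0.12 in Hspa4, -0.11 to 0.13 in Hspa4l, -0.015 to 0.40 in Hspd1, -0.073 to 0.12 in Hspe1, -0.12 to 0.19 in Hspa12a, -0.13 to 0.49 in Hspa12b, -0.43 to 0.025 in Hspa13, -0.25 to 0.16 in Hspa1l, -0.25 to 0.29 in Hspa2, -0.026 to 0.26 in Hspa5, -0.075 to 0.31 in Hspa9, -0.030 to 0.16 in Hspb2, -0.27 to 0.073 in Hspb6, -0.057 to 0.26 in Hspb7, -0.076 to 0.084 in Dnaja2, -0.11 to 0.30 in Dnaja3, -0.053 to 0.10 in Dnajb11, -0.13 to 0.17 in Hsf1, -0.14 to 0.23 in Bag3 and -0.018 to 0.22 in Cryab. With 3 mice in each group, and 1 WT mouse that stood apart, no member passed the adjusted test, and genes of few counts such as Hspa1a and Hspa1b are limited by counting error as well.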
